A study of Mus musculus with 2 samples.

Results

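The genes described here are 7 genes of cholesterol synthesis and its feedback control, Hmgcs1, Idi1, Fdft1, Sqle, Lss, Insig1 and Srebf2. They were taken by name from the 35522 features that both expression tables list, and all 7 were found in both. The working name of the group also mentions the LDL receptor, but none of the 7 encodes it, so they are called the cholesterol genes below. The study sorted neutrophils from mouse bone marrow (Balb/C mice of 5 to 8 weeks are named for immunocyte isolation) as CD11b-positive cells with high Ly-6G and low or no Ly-6C. Both cultures were kept in RPMI-1640 for 3 days, and both contained the myeloid cytokine GM-CSF at 10 ng/ml. For sorted immune cells the study's methods name this medium with 10% fetal bovine serum. One culture received PBS. The other received 20 μg/ml of exosomes (small vesicles collected by ultracentrifugation) shed by cells of the mouse colon carcinoma line CT26 that had been grown as spheres in serum-free medium, named SDCSCs in the study. Each treatment is represented by 1 library, so no value has a spread between replicates and no p-value is given, and whether RNA of several mice was pooled is not stated.

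Cells build cholesterol from acetyl-CoA. The mevalonate part of the route makes isoprenoid units, squalene synthase joins them into squalene, and the squalene is oxidised, closed into lanosterol and trimmed to cholesterol. Transcription of these enzymes is driven by SREBP-2, a factor that is held in the endoplasmic reticulum by INSIG proteins while membrane sterol is plentiful and is released by cleavage when sterol runs low. A surplus of sterol instead activates the nuclear receptors LXR, which switch on cholesterol export.

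The cholesterol genes lay close to their PBS level while much of the transcriptome was higher. RPKM is the number of reads on a gene scaled to exon length and to the sequencing depth of its library. The median ratio of exosome to PBS RPKM was 1.24 over the 7 genes and 1.44 over the 9698 genes that reached 0.25 RPKM in each library, called the genes kept. None of the 7 was at least 2-fold higher, against 31.5% of the genes kept, and none was at least 2-fold lower, against 5.62%. As deposited, Hmgcs1 was the one gene of the 7 with a lower value in the exosome library, whereas after median centring 6 of the 7 were below 0, and 1634 genes were at least 2-fold higher and 1282 lower.

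Control regions are shown first, because the cholesterol genes are textbook targets of 1 factor and the letters it is known to bind can be looked for. RefSeq promoter entries (GRCm38.p6) were matched for 5 of the 7 genes, Hmgcs1, Idi1, Lss, Insig1 and Srebf2. No entry was matched for Fdft1 and Sqle. The 250 bases before the start are printed for Hmgcs1, the gene with the lowest ratio, and for the regulators Srebf2 and Insig1, all on the plus strand. Capitals mark every match, on either strand, to the core of the sterol regulatory element (TCACNCCAC, or TCACNCCA without its last base), the NF-Y box (CCAAT), the GC box (GGGCGG) and the E-box (CACGTG).
Hmgcs1, chr13:119690101-119690350: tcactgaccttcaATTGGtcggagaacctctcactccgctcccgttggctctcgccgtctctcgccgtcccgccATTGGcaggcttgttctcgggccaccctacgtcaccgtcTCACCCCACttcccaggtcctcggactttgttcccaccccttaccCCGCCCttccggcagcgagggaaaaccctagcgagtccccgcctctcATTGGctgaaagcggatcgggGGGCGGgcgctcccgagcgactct
Srebf2, chr15:82147019-82147268: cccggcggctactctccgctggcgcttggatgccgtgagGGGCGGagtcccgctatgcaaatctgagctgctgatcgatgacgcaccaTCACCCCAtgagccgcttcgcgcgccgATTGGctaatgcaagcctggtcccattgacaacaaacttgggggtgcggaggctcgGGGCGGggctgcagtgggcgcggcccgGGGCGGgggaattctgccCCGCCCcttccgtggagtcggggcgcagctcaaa
Insig1, chr5:28071162-28071411: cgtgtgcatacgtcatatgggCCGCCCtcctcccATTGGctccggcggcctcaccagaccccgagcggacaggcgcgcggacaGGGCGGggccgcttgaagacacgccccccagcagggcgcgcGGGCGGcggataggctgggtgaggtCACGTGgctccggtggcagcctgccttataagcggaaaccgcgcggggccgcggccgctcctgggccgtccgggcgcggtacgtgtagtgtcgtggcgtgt

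The full core, in which N stands for any base, was present in 1 of the 5 promoters, that of Hmgcs1, where it begins 137 bases before the start. It was found in 1.05% of all 32851 promoters of this length. The shorter form, searched after the sequences had been seen and contained in the full core, was present in Hmgcs1 and in Srebf2, where it begins 162 bases before the start, and in 3.67% of all promoters. NF-Y boxes were present in 5 of 5 promoters, against 33.8% of all, and GC boxes in 5 of 5, against 32.7%. The 5 windows held from 51.2% (Idi1) to 73.6% (Lss) of G and C bases. The Lss entry uses a later start, so its window ended at 76531604, past the listed beginning of the gene at 76531565. The share among promoters of like G and C content was not computed. The E-box was present in Insig1 alone of the 5, against 6.02% of all. NF-Y and Sp1, which bind the CCAAT and GC boxes, are known partners of SREBPs. A match describes letters in this window and is not evidence of binding, and promoters that hold the other boxes but not the core may carry it elsewhere.

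Srebf2 also houses a microRNA. The mature forms of miR-33 lie within the gene on its own strand (chr15:82198127-82198147 and chr15:82198167-82198188, GRCm38.p6). They are shown because miR-33-5p is known to target Abca1, a cholesterol exporter described below, and capitals mark the seed, bases 2 to 8.
mmu-miR-33-5p: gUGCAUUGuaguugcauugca
mmu-miR-33-3p: cAAUGUUUccacagugcaucac
The Mir33 feature is listed at 0 RPKM in both libraries, which were made with a kit for mRNA, so the mature microRNA was not measured.

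Sequencing depth, estimated from the tables, came to 65.97 M reads with PBS and to 79.13 M with exosomes, a ratio of 1.2. The tables did not hold read counts. The depth was read from the values below 0.01 RPKM, many of which equal a single read. It gave between 249 and 13487 estimated reads for each cholesterol gene in each library. The 95% counting intervals below rest on these estimates. They cover counting error only, and leave out variation between cultures, animals and libraries. Of 14 neutrophil markers, 11 were at least 2-fold lower with exosomes and 2, Mpo and Elane, were higher. The summed RPKM of the 14 went from 84720 to 30500. Most of it was S100a8 and S100a9, at 32822.83 and 43059.08 RPKM with PBS. Of 12 monocyte and macrophage markers, 12 were higher, 5 of the 7 that were kept at least 2-fold, and their summed RPKM went from 165.5 to 478.6. The summed RPKM of 5 B cell markers went from 108.1 to 66.87, and of the 4 markers of colon carcinoma cells none was kept and Krt8 was at 0 in both. The purity limit that the study set for sorted cells left room for other cell types from the start. In such bulk RNA, fewer cells of a type and less RNA per cell cannot be told apart. The part of this shift in the values of the cholesterol genes was not tested.

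**Figure D1:**
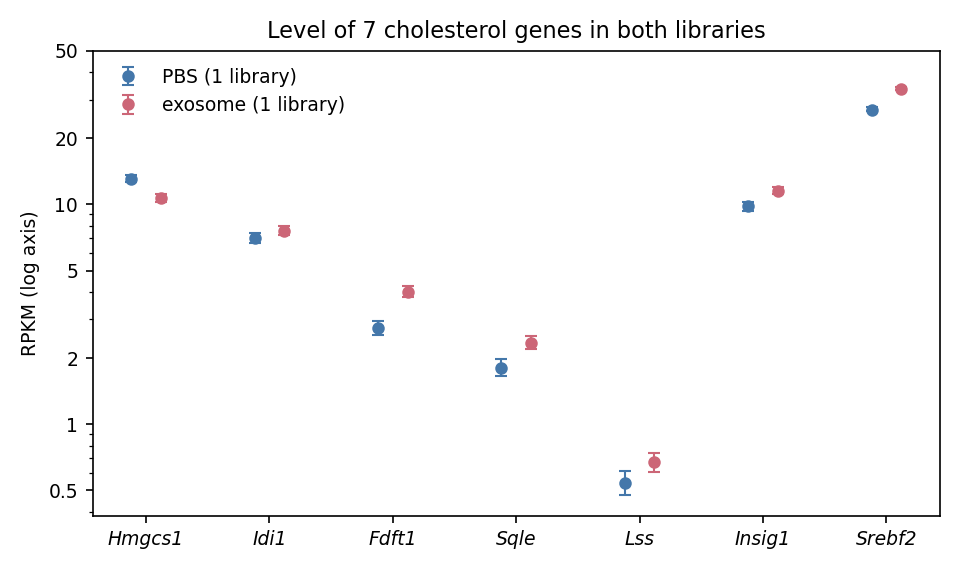
RPKM (log axis) of the 7 cholesterol genes in the PBS library (blue) and the exosome library (red), 1 library each; bars are 95% counting intervals from estimated reads and show no biological spread. Srebf2 is highest and Lss lowest in both, and Hmgcs1 is the one gene whose exosome value lies below its PBS value as deposited.

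Hmgcs1 encodes cytosolic HMG-CoA synthase, which makes the substrate of the rate-limiting step of the route. The gene (chromosome 13, 119690351 to 119708260, GRCm38.p6) had 13.09 RPKM in PBS-treated and 10.66 RPKM in exosome-treated neutrophils. The log2 ratio of exosome to PBS was -0.30, with a counting interval of -0.37 to -0.22. That placed Hmgcs1 at percentile 17.6 of the log2 ratios of all genes kept, the lowest of the 7. A log2 ratio below 0 was found in 26.8% of the genes kept.

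Idi1 encodes the isomerase that prepares isoprenoid units for chain building. It (chromosome 13, 8885606 to 8892396) had 7.02 RPKM with PBS and 7.60 RPKM with exosomes. Its log2 ratio of 0.11 was the one nearest to 0, and the counting interval of 0.01 to 0.22 just left out 0. As deposited, both genes of the mevalonate part lay nearer to a ratio of 1 than most genes kept, as 41.5% of those were within 1.5-fold. The median ratio of all genes kept was 1.44, however. After median centring the log2 ratios of Hmgcs1 and Idi1 were -0.82 and -0.41.

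Fdft1, Sqle and Lss act one after another, from the first step that is committed to sterols. Fdft1 encodes squalene synthase and had 2.74 RPKM with PBS and 4.01 with exosomes. Its log2 ratio of 0.55 (counting interval 0.41 to 0.69) was the highest of the 7 and stood at percentile 51.0 of all genes kept, that is, at the middle of the table. Sqle encodes squalene epoxidase, a flow-controlling oxygenase of the route, and had 1.81 and 2.35 RPKM. The log2 ratio of Sqle was 0.38 (counting interval 0.22 to 0.54). Lss encodes lanosterol synthase, which closes the ring system, and had the least RNA, 0.54 and 0.67 RPKM. The log2 ratio of Lss was 0.31, with the widest counting interval of the 7, 0.08 to 0.55. As RPKM was deposited to 2 decimals, rounding alone lets the log2 ratio of Lss lie between 0.29 and 0.34. The counting intervals of these 3 genes overlapped one another.

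Insig1 encodes the sterol-sensing anchor that holds SREBP in the endoplasmic reticulum, and is itself an SREBP target. It (chromosome 5, 28071412 to 28078662) had 9.80 RPKM with PBS and 11.56 RPKM with exosomes, a log2 ratio of 0.24 (counting interval 0.15 to 0.33). Srebf2 encodes SREBP-2. It (chromosome 15, 82147269 to 82205379) had 27.01 and 33.57 RPKM, the highest level of the 7 in both libraries, and a log2 ratio of 0.31 (counting interval 0.28 to 0.35). Both regulators were thus slightly higher as deposited, by ratios of 1.18 and 1.24, and both lay below the median log2 ratio of all genes kept, 0.53.

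Between genes, levels spanned 50-fold in PBS and 50.1-fold with exosomes, from Lss to Srebf2. The order in PBS was Srebf2, Hmgcs1, Insig1, Idi1, Fdft1, Sqle and Lss. With exosomes Insig1 stood before Hmgcs1, at 11.56 and 10.66 RPKM, and their counting intervals (11.1 to 12 and 10.3 to 11.1) met at their ends. Their ratio of 1.08 was the smallest between neighbours in either library. All other neighbours in either library had counting intervals that did not overlap. Srebf2 stood at level percentile 81.8 of the genes kept in PBS and 82.6 with exosomes, and Hmgcs1 went from percentile 68.8 to 56.1. Lss stood at 9.70 and 5.95. The summed RPKM of the 5 enzymes was 25.2 with PBS and 25.29 with exosomes. Without Hmgcs1 the sums were 12.11 and 14.63 RPKM, a ratio of 1.21.

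As deposited, 6 of the 7 log2 ratios were above 0 and 1 was below. After subtracting the all-gene median, a trimmed mean of log ratios or the median of like-level genes, 6 were below 0 and 1 above. The gene above was Fdft1 with the median (0.02) and the trimmed mean (0.008), and Srebf2 with like-level genes (0.0012). The counting interval left out 0 for 7 of 7 genes as deposited. Those of Fdft1, Sqle and Lss held the median log2 ratio of all genes kept, 0.53, so they include 0 once that median is subtracted. The log2 ratios had an SD of 0.27 over the 7 genes, against 1.06 over the other genes kept. Hmgcs1 had a counting interval apart from those of all 6 other genes. Among the remaining 15 pairs, 5 had intervals apart. None of the 7 reached even 1.5-fold in either direction as deposited, while 47.3% of the genes kept were at least 1.5-fold higher and 11.3% at least 1.5-fold lower. Accordingly, 7 of 7 cholesterol genes as deposited lay within 1.5-fold and 41.5% of all genes kept did. This depended on the scaling. Hmgcs1 was more than 1.5-fold lower after median centring (log2 ratio -0.82) and with the trimmed mean taken off (-0.84). After class centring Hmgcs1 (-0.61) and Sqle (-0.62) were both more than 1.5-fold lower.

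**Figure D2:**
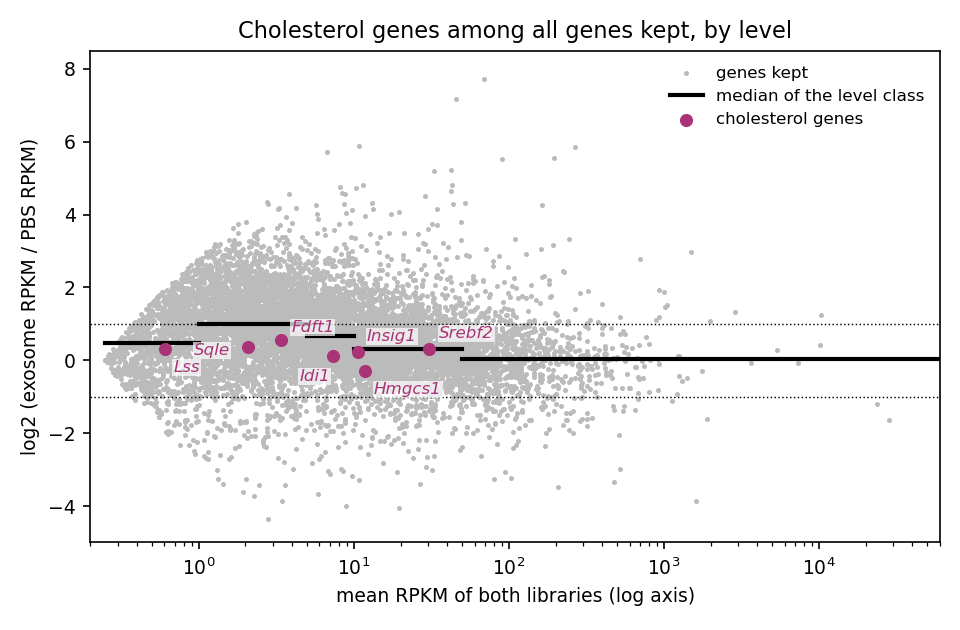
Log2 ratio of exosome to PBS RPKM against mean RPKM (log axis) for 9698 genes kept (grey) and the 7 cholesterol genes (purple), with black bars at the median of each level class and dotted lines at 2-fold. All 7 lie between the dotted lines, 6 of them under the black bar of their class and Srebf2 on it.

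The shift of the whole table differed with the level of expression, so each gene was also set beside genes of like level. In the class of mean RPKM 1 to 5, which holds Fdft1 and Sqle, 50.2% of 2950 genes were at least 2-fold higher and the median log2 ratio was 1.0. Fdft1 lay 0.45 below that median on the log2 scale and Sqle 0.62 below it, and 33.2% and 27.7% of the class had a lower ratio. Idi1 lay 0.56 below the median of its class, 5 to 10 RPKM, where 20.6% of genes had a lower ratio. In the class of 10 to 50 RPKM the median was 0.31. Hmgcs1 lay 0.61 below it, with 18.4% of the class lower, Insig1 lay 0.07 below it, and Srebf2 equalled it to 2 decimals. Lss, in the class of 0.25 to 1 RPKM, lay 0.17 below its median of 0.48. With these classes, the 5 enzymes lay further below the median of their level class than the 2 regulators did. For Insig1 this rests on the class edge at 10 RPKM, as its levels were 9.80 and 11.56 RPKM. The class below that edge had a median of 0.67. The counting intervals of Lss, Insig1 and Srebf2 included their class median.

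The other enzymes of the route were described to see whether the 7 stand for it. The list holds 14 further enzymes, is not complete, and all 14 were kept. Of these, 2 were at least 2-fold higher, none was at least 2-fold lower, and the median log2 ratio was 0.35, close to the 0.31 of the 7 and below the 0.53 of all genes kept, so that it too lies below 0 after median centring. After median centring none of the 14 was at least 2-fold higher and 1 was at least 2-fold lower. None was at least 2-fold higher among genes at 1 RPKM or more in both libraries, or with a pseudocount of 1. Mvk, mevalonate kinase, had 0.35 RPKM with PBS and 0.99 with exosomes, a log2 ratio of 1.5. Nsdhl, a sterol dehydrogenase of the demethylation steps, had 0.75 and 1.90 RPKM, a log2 ratio of 1.34. The lower end of the list was named after its values were seen. Msmo1, the sterol methyl oxidase listed under its older symbol Sc4mol, had 31.02 and 16.99 RPKM, a log2 ratio of -0.87. Lbr, the lamin B receptor of the nuclear envelope that also carries sterol reductase activity, had the highest level of the route, 123.97 RPKM with PBS and 93.32 with exosomes.

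By stage, 7 enzymes before squalene had a median log2 ratio of 0.38, the 3 enzymes from squalene to lanosterol, all of them among the 7 genes, had 0.38, and 9 enzymes after lanosterol had 0.25. Of the 9 late enzymes, 4 had a log2 ratio below 0 as deposited, against 2 of 7 early ones and 26.8% of all genes kept. Over the 19 enzymes, 17 lay within 2-fold as deposited, as did 62.9% of all genes kept. Fdft1, Sqle and Lss spanned 0.31 to 0.55, the narrowest range of the 3 stages and also the one of fewest genes, while the late stage ran from -0.87 to 1.34.

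**Figure D3:**
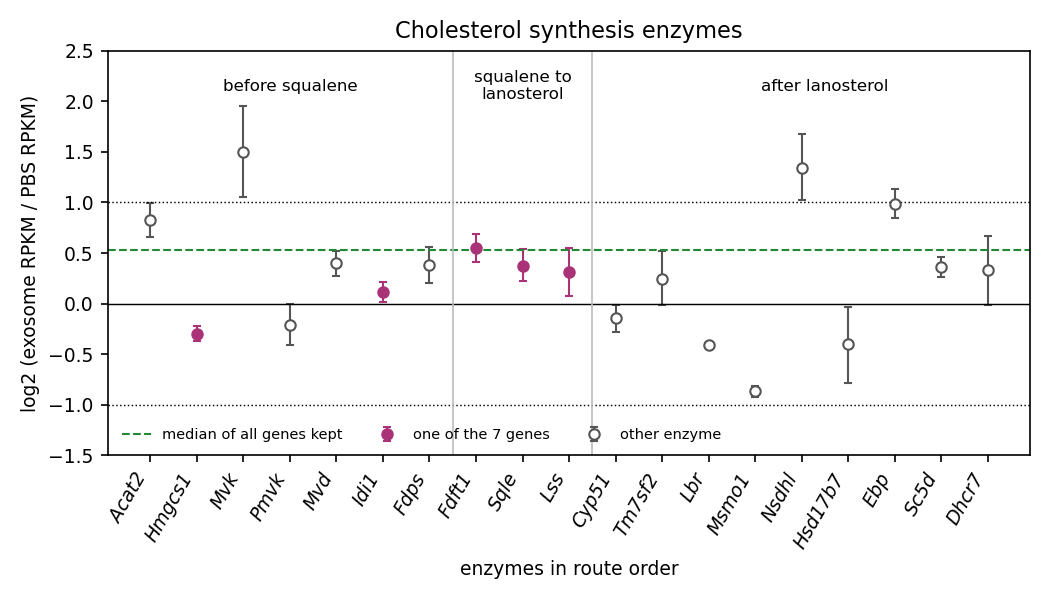
Log2 ratio of exosome to PBS RPKM for 19 cholesterol synthesis enzymes in approximate route order, filled for those among the 7 genes, with 95% counting intervals from 1 library per treatment, dotted lines at 2-fold and a dashed line at the median of all genes kept (0.53). The filled points run from -0.30 (Hmgcs1) to 0.55 (Fdft1), and 2 open points, Mvk and Nsdhl, lie above the upper dotted line as deposited, though not after median centring.

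The paralogs of both regulators had higher ratios than the regulators themselves, but also lower levels, which place them in other level classes. Srebf1, which encodes SREBP-1, had 3.87 RPKM with PBS and 8.63 with exosomes, a log2 ratio of 1.16 (counting interval 1.06 to 1.26), which is apart from that of Srebf2. Srebf2 was 6.98 times the level of Srebf1 in PBS and 3.89 times with exosomes. Insig2 had 3.12 and 5.87 RPKM, a log2 ratio of 0.91 (counting interval 0.77 to 1.06), again apart from that of Insig1. Beside genes of like level, Srebf1 lay above the median of its class, 5 to 10 RPKM (0.67). Insig2 lay just below that of its class, 1 to 5 RPKM (1.0), as Insig1 lay just below its own. The level of Insig1 was 3.14 times that of Insig2 in PBS and 1.97 times with exosomes. Mbtps2, which encodes the site-2 protease that frees SREBP from the membrane, had 0.36 and 2.79 RPKM, a log2 ratio of 2.95. Scap, which escorts SREBP out of the endoplasmic reticulum, had 3.02 and 3.59 RPKM, a log2 ratio of 0.25. Of the 5 genes of SREBP processing, 2 were at least 2-fold higher (1 after median centring) and none lower, and their median log2 ratio was 0.91. With 31.5% of all genes kept at least 2-fold higher, that count is near the background.

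Genes of sterol export and storage are the counterpart of synthesis. Of 13 such genes 10 were kept, 5 were at least 2-fold higher and none was at least 2-fold lower, with a median log2 ratio of 1.10. Of all genes kept, 31.5% were at least 2-fold higher, and the median of the list was 0.72 among genes at 1 RPKM or more in both libraries. Abca1, which encodes the transporter that loads cholesterol onto apolipoprotein A-I, had 0.67 RPKM with PBS and 16.11 with exosomes, a log2 ratio of 4.59 (counting interval 4.45 to 4.72). Abcg1, a second cholesterol exporter, had 1.98 and 9.81 RPKM, a log2 ratio of 2.31. Mylip, a ubiquitin ligase induced by LXR that removes lipoprotein receptors, had 3.43 and 15.03 RPKM, a log2 ratio of 2.13. Lipa and Nceh1, which encode hydrolases of cholesteryl esters, had log2 ratios of 1.76 and 1.48. Nr1h3, which encodes LXRα, missed the filter at 0.21 and 0.98 RPKM, while Nr1h2, which encodes LXRβ, had 36.6 and 38.58 RPKM. Several of these genes are also well expressed in macrophages, and the summed RPKM of macrophage markers was 2.89 times as high with exosomes. Adgre1 (listed as Emr1) went from 20.91 to 151.51 RPKM beside them. The part of that difference in the levels of Abca1, Abcg1 and Mylip was not tested.

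Genes that share an input or a regulator with the route spread more widely than the 7 cholesterol genes, in lists of more genes. Of 12 fatty acid synthesis genes 9 were kept, 4 were at least 2-fold higher, or 44.4% against 31.5% of all genes kept, and none lower, with a median log2 ratio of 0.83. Among genes at 1 RPKM or more in both libraries, 1 was at least 2-fold higher and the median was 0.52. Elovl5, a fatty acid elongase, had 1.43 and 7.77 RPKM, and Scd2, a desaturase, had 0.41 and 2.55. Acaca, acetyl-CoA carboxylase, had 0.27 and 1.08 RPKM, and Gpam, an acyltransferase of glycerolipid synthesis, 0.43 and 0.91. Fasn, fatty acid synthase, had 0.48 RPKM in both libraries. Of 12 genes that draw isoprenoids from the mevalonate route for other products, 11 were kept, 4 were at least 2-fold higher and 1 was at least 2-fold lower, with a median of 0.70. Those shares, 36.4% and 9.09%, are near the 31.5% and 5.62% of all genes kept. Coq2 and Pdss1, of ubiquinone synthesis, had log2 ratios of 2.21 and 1.07, and Rce1 and Pggt1b, of protein prenylation, 2.06 and 1.80. Fntb, which encodes the farnesyltransferase beta subunit, went the other way, with 1.69 and 0.60 RPKM and a log2 ratio of -1.49.

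**Figure D4:**
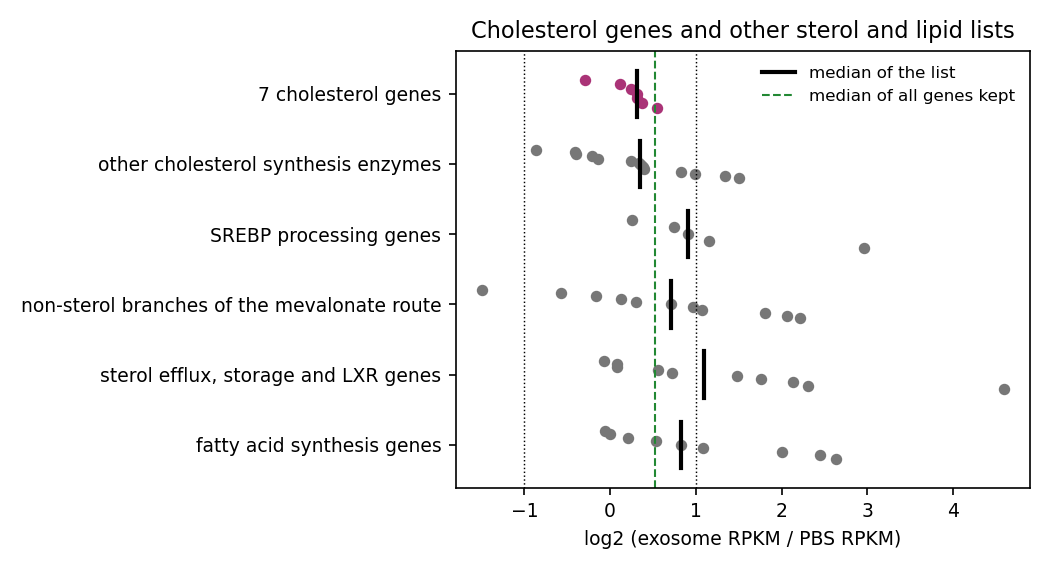
Log2 ratio of exosome to PBS RPKM for every kept gene of the 7 cholesterol genes and 5 related lists, 1 point per gene (height within a row has no meaning), with a black bar at each list's median, dotted lines at 2-fold and a dashed line at the median of all genes kept. The 7 genes lie between -0.30 and 0.55, and Abca1 is the point at 4.59.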

How the data were processed

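The authors sequenced mRNA libraries (TruSeq Standard mRNA, Illumina HiSeq) of 1 PBS-treated and 1 exosome-treated neutrophil culture, trimmed reads at a Phred score of 20 in CLC Genomics Workbench v8.0 and deposited 1 RPKM value per feature and sample. The build named in the submitters' processing notes is mm10. The gene models, the handling of multiply mapped reads and any further scaling are not given in the sources used here. RPKM from 0.01 upward is rounded to 0.01.

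From the RPKM values, genes that reached 0.25 RPKM in each sample were kept, and a ratio of at least 2 or at most 0.5 was called, with no pseudocount. With 1 library per group no test was run, and replicate error is unknown. Mapped reads were estimated as the commonest total at which 1 read gives the RPKM of features under 0.01, with the longest transcript in GENCODE M21 (177 of 918 features in PBS and 210 of 1064 in the exosome sample shared that total). Counting intervals are exact 95% Clopper-Pearson intervals of estimated reads for ratios and exact Poisson intervals for levels. Transcript lengths were found for 91.7% of the genes kept, and may differ from the exon models the authors used. The 7 genes, the lists and the tests were chosen with earlier results of these data known. Named are the 7 genes, list genes past 2-fold, Srebf1 and Insig2. Other genes were named after their values were seen. Some genes of the route are not reported here. No gene of like pattern is named, since 2 libraries give no pattern. Alternatives were median centring, TPM, a trimmed mean of log ratios (30% of ratios and 5% of mean values left out at each end), centring by level class, 3 other filters, a pseudocount of 1 and ratios of 1.5 and 4. Calls and depth estimates were tested on simulated data. Promoter and microRNA sequences are RefSeq's (GRCm38.p6). Python 3.11.15, numpy 2.4.6, pandas 2.3.3 and scipy 1.17.1 were used.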

Additional observations from a re-analysis of the deposited data

How the results depend on the processing

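No paired analysis was possible because each group holds 1 library, and no replicate could be left out. No cholesterol gene was called at 2-fold under any alternative that kept it, and an RPKM of at least 1 in both libraries removed Lss. The sign of the group depended on the scaling. The median log2 ratio of the 7 genes was 0.31 as deposited, -0.22 after median centring, -0.23 with a trimmed mean of log ratios taken off and -0.45 after centring by level class. Of 55 recomputed log2 ratios of single genes, 33 stayed within the counting interval and 22 did not. The median of all genes kept was 0 after median and class centring, -0.015 with the trimmed mean, 0.57 with TPM, 0.45 at 1 RPKM or more, 0.41 with a pseudocount of 1 and 0.16 with no filter and a pseudocount of 0.25. In that last setting 2 of the 7 genes, not 6, lay below the median of all genes. The background moved as well. Higher and lower genes numbered 3056 and 545 as deposited, 1634 and 1282 after median centring, 1596 and 1321 with the trimmed mean, and 1353 and 1301 after class centring. Higher genes numbered 1958 at 1 RPKM or more and 1976 with a pseudocount of 1. A ratio of 4 gave 826 and 111, and a ratio of 1.5 gave 4586 and 1092. Of 100 list counts, 70 stayed within 1.5 times, and these include counts of 0 that stayed at 0. From 4 to 6 sterol export genes were at least 2-fold higher under every scaling, filter and pseudocount. Class centring put 1 other gene of that list at least 2-fold lower. With the length of the principal transcript, chosen after seeing the data, the counting interval of Lss was 0.02 to 0.60 as deposited. Still 7 of 7 intervals left out 0 as deposited, which does not hold for all 7 after median centring. The cause of these differences was not tested.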
